A study of Mus musculus with 384 samples.

Results

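Transcripts of 9 genes that decide whether a cell survives or dies by the mitochondrial route were followed in single regulatory T (Treg) cells of mouse ear skin. The genes were chosen by name. They are Bcl2, Bcl2l1, Mcl1 and Bcl2a1b, whose proteins hold the route shut, Bcl2l11 and Bbc3, whose proteins open it, Bax and Bak1, which carry it out, and the kinase gene Pim1. All 9 were among the 50556 gene symbols of the count matrix. The imiquimod cells came from mice given 5% imiquimod on both sides of the ear skin 3 times, and the vehicle cells from mice given a vehicle control in the same way, with all mice killed on day 3. The design text names 2 mice for each treatment and does not tie a mouse to a plate, and the labels give no strain, age or genotype. Treg cells were sorted from the skin into wells, and a further 16 wells held 10 Treg cells each and 20 held no cell. The labels give no treatment for the ten-cell wells or the empty wells, and these enter no comparison of treatments. Of 87 single-cell wells on each of 4 plates, those with at least 500 detected genes and 10000 counts were kept (82 imiquimod and 120 vehicle cells).

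The Bcl2 family sets the threshold of apoptosis at the outer membrane of mitochondria. Bax and Bak1 form pores there, the proteins encoded by Bcl2, Bcl2l1 (Bcl-xL), Mcl1 and Bcl2a1 (A1) bind and restrain them, and proteins with only a BH3 domain, such as Bim (Bcl2l11) and Puma (Bbc3), neutralise the restrainers. Treg cells depend on interleukin-2 and on Mcl1 for survival, and Bim limits their number. Pim1 is a kinase induced by cytokine signals through STAT5 that supports survival and growth, and Bcl2l1 and Bcl2a1 are known targets of NF-kB.

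Each well was a library of its own, without molecular identifiers, so that PCR copies of a molecule count as several reads. The replicate was the plate (a set of titles), with 2 plates for each treatment. The labels tie no plate to an animal, so p-values measure only the spread between plates. Kept cells held 47481 to 5946386 counts and a median of 975 and 1093 genes on the imiquimod plates against 1040.0 and 1503 on the vehicle plates. A list of 8 T cell markers had a count in 92.6% of kept cells and a list of 7 Treg markers in 88.1%. T cell receptor or CD3 transcripts were seen in 180 of these cells, and Foxp3, which defines the lineage, in 75. Immediate early genes, a sign of stimulation or handling, summed to 10322 and 11314 CPM (counts per 1000000 counts of the library) in imiquimod, against 4794 and 3782 CPM in vehicle. A count of erythroid markers was found in 21 and 20 imiquimod cells against 2 and 13 vehicle cells, and of mast cell markers in 2 and 2 imiquimod cells against 18 and 15 vehicle cells, with Mcpt4, Fcer1a and Tpsb2 at 0 on all plates. Dendritic and Langerhans markers had a count in 44.6% of kept cells (13 and 12 imiquimod against 28 and 37 vehicle cells). Macrophage markers had one in 34.2% (8 and 19 imiquimod against 18 and 24 vehicle cells). Endothelial markers had one in 14.9% (1 and 6 against 10 and 13), neutrophil markers in 10.9% and fibroblast markers in 9.41%. The part of these differences in the results for the 9 genes was not tested.

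None of the 9 genes passed the test between imiquimod and vehicle. With the counts of a plate's kept cells added up, edgeR's quasi-likelihood test called 0 of the 9 and 0 of all 14462 genes tested (0.0%) at an adjusted p under 0.05. At an unadjusted p under 0.05 it held 1669 genes (11.5%) and 0 of the 9. All 9 genes passed the filter on low counts. Limma, run on each plate's average of log2(CPM + 1) over cells, called 0 of all genes (0.0%), with 2496 at an unadjusted p under 0.05 (17.3%), of which 1, Bcl2l1, is among the 9. DESeq2 called 3740 genes (25.9%) and 0 of the 9, where Pim1 had an adjusted p of 0.051. With imiquimod plate 1 left out edgeR called 1.02% of 20984 genes, and with plate 2 of imiquimod left out 794 genes (3.91% of 20284). Those fits hold 1 imiquimod plate and assume that it varies like the vehicle plates. With either vehicle plate left out edgeR called 0.

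Summed over cells, levels of 4 of the 9 genes did not overlap between the plates of the treatments, against 44.8% of all tested genes. Bcl2, Bax and Pim1 were higher on both imiquimod plates, as were 13.7% of all tested genes, and Bcl2l1 was lower on both, as were 31.1%. The log2 fold change was above 0 for 7 of the 9, with a median of 1.35, against 6744 of 14462 genes and a median of -0.26 overall. DESeq2's size factors moved the median of all genes by 0.37 to 0.11. Under that scaling the log2 fold change of Bcl2a1b was 0.46, where TMM gave -0.01, and the other 8 genes kept their sign.

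**Figure D1:**
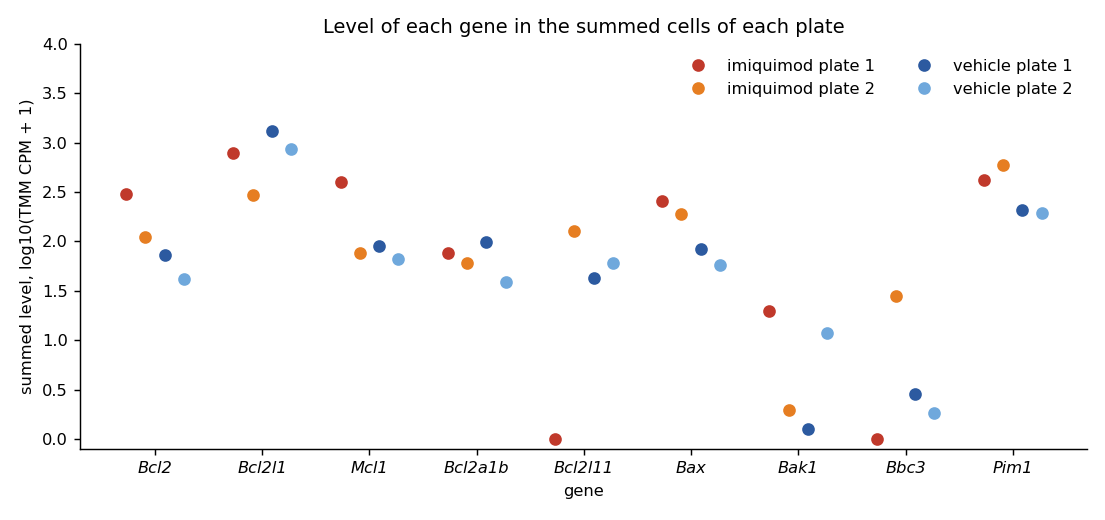
Summed level of each gene, as log10 of TMM-scaled CPM + 1, with 1 point for each plate (imiquimod in red and orange, vehicle in dark and light blue). Bcl2l1 lies lower on both imiquimod plates, Bcl2, Bax and Pim1 lie higher, and Bcl2l11 and Bbc3 stand at 0 on imiquimod plate 1.

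Detection ran from 60.9% of the kept cells for Pim1 to 5 cells for Bbc3 (2.48%). Bcl2l1 had a count in 74 cells (36.6%), Bcl2a1b in 52 (25.7%), Mcl1 in 23 (11.4%), Bax in 19 (9.41%), Bcl2 in 18 (8.91%), Bcl2l11 in 13 (6.44%) and Bak1 in 8 (3.96%). In the 20 empty wells 8 of the genes had no count, which allows a share of up to 15.0% in such wells. The median count total of the empty wells lay far below the 47481 counts of the shallowest kept cell. The limit therefore does not describe background at the depth of a cell, and it places no gene's share above or below background. Mcl1 had a count in 1 of the 20 empty wells. That well held 1527760 counts and 885 genes and would pass the filter for kept cells. The filter therefore does not exclude every well without a cell. Cells with a count of each of the 9 genes also had T cell receptor or CD3 transcripts in 89.5% of cases (Bax) up to all of them (Bak1 and Bbc3), against 89.1% of all kept cells. Per kilobase of exon (unscaled CPM per kb, summed cells), Bcl2l1 had the highest mean of the 4 plates at 183.9 ± 114.3 (SD), followed by Pim1 at 98.2 ± 46.2, Bax at 82.6 ± 36.0, Bcl2a1b at 80.6 ± 33.9 and Mcl1 at 38.6 ± 28.4. Then came Bcl2 at 12.1 ± 7.47, Bcl2l11 at 7.46 ± 6.19, Bbc3 at 3.36 ± 5.78 and Bak1 at 2.89 ± 3.07. Plates of all neighbours in this order overlapped.

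**Figure D2:**
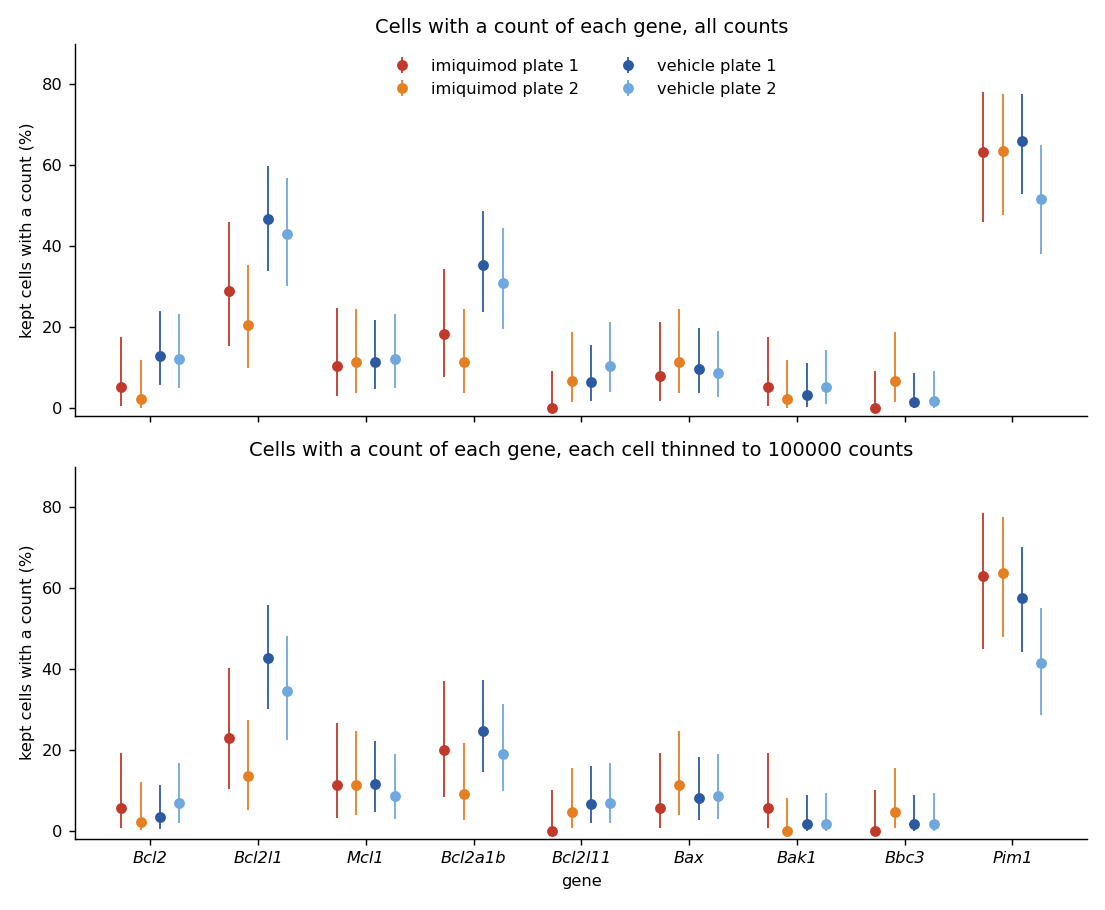
Share of kept cells with a count of each gene, in percent, for each plate, with exact 95% binomial intervals that cover counting error only. The upper panel uses all counts and the lower panel cells thinned to 100000 counts. Bcl2l1 is lower on both imiquimod plates in both panels, Bcl2 and Bcl2a1b in the upper panel alone, and Bcl2l11 in the lower panel alone. Pim1 is higher on both in the lower panel alone.

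Of the 9 genes, 3 had a count in at least 20% of kept cells. Bcl2l1 and Bcl2a1b were detected in a lower share of cells on both imiquimod plates, as were 59.3% of the 1559 genes detected that often, and Pim1 was not higher on both, as were 3.78%. After each cell was thinned to 100000 counts, which left out 4 shallower cells, Bcl2l1 remained lower on both (57.7% of these genes) and Pim1 was higher on both (5.0%). The smallest p that an exact permutation test of 2 plates against 2 can give is 0.33, so no share can pass 0.05.

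Bcl2l1, which encodes the restrainer Bcl-xL, was seen in a lower share of imiquimod than vehicle cells. Its median level in cells with a count was lower too, where faint detections weigh in. It had a count in 11 of 38 and 9 of 44 cells of the imiquimod plates (28.9% and 20.5%), against 29 of 62 and 25 of 58 cells of the vehicle plates (46.8% and 43.1%). The plates of the treatments did not overlap, and the mean was 24.7% ± 6.01 in imiquimod and 44.9% ± 2.60 in vehicle (SD, n = 2 plates each, exact two-sided permutation p = 0.33). Thinned to 100000 counts, the shares were 22.9% and 13.6% in imiquimod against 42.6% and 34.5% in vehicle. Imiquimod minus vehicle was -20.2 percentage points with all counts, and between -34.8 and -16.1 points under the 7 other thresholds, depths and cell filters tried.

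The level of Bcl2l1 within cells was uneven. In cells with a count, its median level was 63.9 and 134.3 CPM in imiquimod, against 1277 and 1074 CPM in vehicle. These medians include faint detections, since 18 of the 74 cells had fewer than 10 counts. At least 10 counts were held by 7 of 11 and 6 of 9 such imiquimod cells, against 24 of 29 and 19 of 25 vehicle cells. Medians without the faint cells were not taken. The gap therefore cannot be read as a lower level in cells with more than faint counts. More than 1000 CPM were reached by 4 and 3 imiquimod cells against 16 and 13 vehicle cells, up to 37969 CPM in 1 cell of vehicle plate 1. The summed level was 794 and 295.3 CPM (TMM-scaled) in imiquimod, against 1313 and 868 CPM in vehicle. Both imiquimod values lay below both vehicle values, with a log2 fold change of -1.0 ± 0.81 (SE, edgeR adjusted p = 0.689). It was -1.79 without imiquimod plate 1, -0.36 without imiquimod plate 2, and -0.75 and -1.27 without vehicle plates 1 and 2. The 3 highest cells held 91.6% and 95.1% of the counts on the imiquimod plates, against 33.0% and 38.9% on the vehicle plates. With every cell weighing the same, the difference of mean log2(CPM + 1) was -2.34 ± 0.67 (SE, limma p = 0.00932, adjusted p = 0.274).

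**Figure D3:**
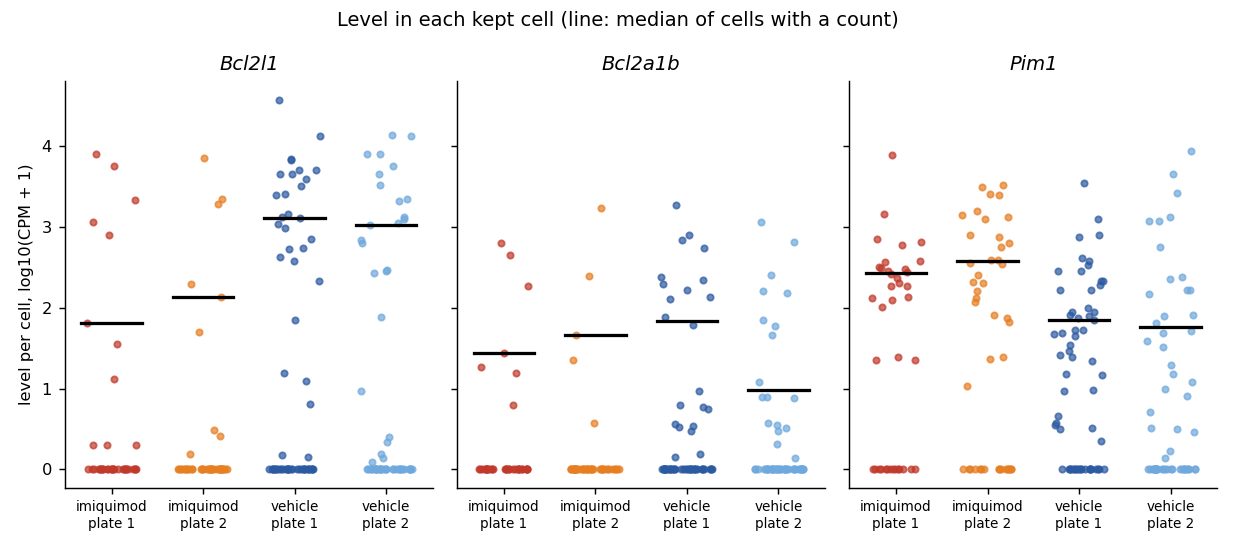
Level of Bcl2l1, Bcl2a1b and Pim1 in each kept cell, as log10(CPM + 1), by plate, where points at 0 are cells without a count and lines mark the median of cells with a count. Lines for Bcl2l1 stand lower on the imiquimod plates and those for Pim1 higher.

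Cells with more detected genes carried Bcl2l1 more often in vehicle than in imiquimod. Among the cells of each plate with the most genes it was seen in 31.6% and 22.7% of imiquimod cells against 71.0% and 62.1% of vehicle cells. Among those with the fewest genes it was seen in 26.3% and 18.2% of imiquimod cells against 22.6% and 24.1% of vehicle cells. The imiquimod and vehicle plates thus lay apart in the cells rich in genes and overlapped in the others, a split that was made on the number of genes and was not tested. Each plate was split at its own median, 975 and 1093 genes in imiquimod against 1040 and 1503 in vehicle. Gene-rich cells of the treatments are therefore not alike in gene number. In kept cells of 750 to 1500 genes Bcl2l1 was seen in 26.7% and 5.88% of imiquimod cells against 50.0% and 27.8% of vehicle cells. Bcl2a1b had the same order among gene-rich cells, with 31.6% and 13.6% in imiquimod against 54.8% and 37.9% in vehicle, and in the other cells 5.26% and 9.09% in imiquimod against 16.1% and 24.1% in vehicle. Pim1 was seen in 89.5% and 86.4% of gene-rich imiquimod cells against 80.6% and 62.1% of gene-rich vehicle cells. In the cells with the fewest genes its order turned, with 36.8% and 40.9% in imiquimod against 51.6% and 41.4% in vehicle.

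**Figure D4:**
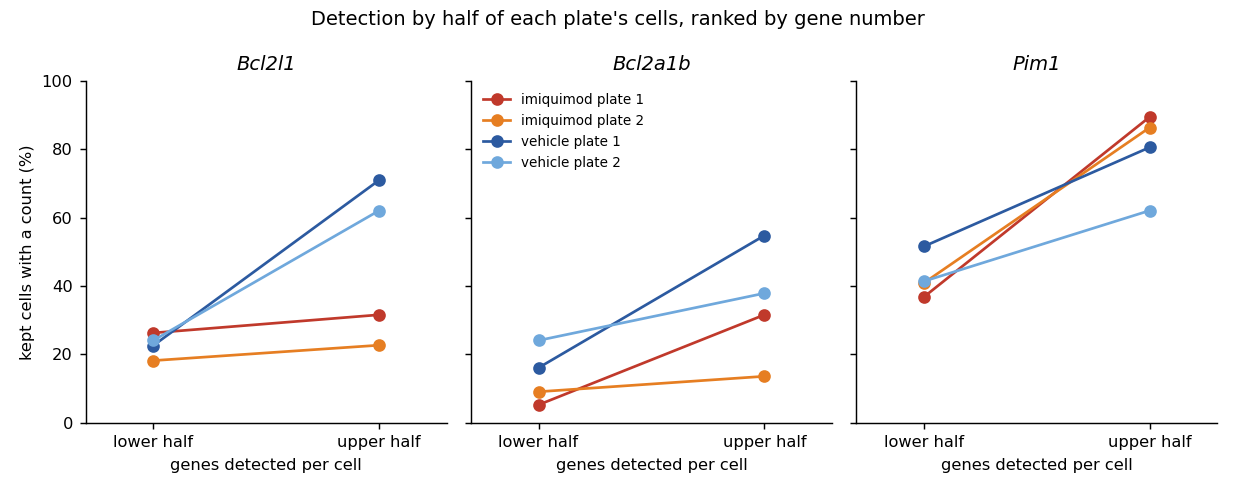
Share of cells with a count of Bcl2l1, Bcl2a1b and Pim1, in percent, when the kept cells of each plate are ranked by gene number and split at the middle. Lines join the fewer-gene and more-gene cells of 1 plate. For Bcl2l1 the vehicle lines climb to 71.0% and 62.1% while the imiquimod lines end at 31.6% and 22.7%.

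Bcl2a1b encodes A1, a short-lived restrainer that NF-kB induces in activated lymphocytes. Mice carry near-identical copies of the gene, and the counting of reads that fit more than 1 copy is not given in the sources used here. The 3 copies with counts are all on chromosome 9, Bcl2a1b at chr9:89199209-89207827 (GRCm38, plus strand, GENCODE M21), Bcl2a1a at chr9:88956900-88962419 (plus strand) and Bcl2a1d at chr9:88723285-88731914 (minus strand). Their coding sequences have 519 bases, of which Bcl2a1b differs from Bcl2a1a at 11 and from Bcl2a1d at 6 (97.9% and 98.8% identity). Of the 470 stretches of 50 bases in the coding sequence of Bcl2a1b, 42.8% occur unchanged in Bcl2a1a and 52.3% in Bcl2a1d. The first 60 coding bases (GENCODE M21 transcripts, GRCm38, 5′ to 3′) are shown because they hold 6 of the positions by which a read can be told apart, set in capitals.
Bcl2a1b: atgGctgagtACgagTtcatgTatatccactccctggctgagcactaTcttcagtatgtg
Bcl2a1a: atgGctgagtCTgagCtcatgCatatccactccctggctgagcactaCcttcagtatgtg
Bcl2a1d: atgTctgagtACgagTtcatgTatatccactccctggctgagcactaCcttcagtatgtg

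The 3 copies were counted in overlapping sets of cells. A count of any copy was found in 60 kept cells, of Bcl2a1b in 52, of Bcl2a1a in 40 and of Bcl2a1d in 31. All 40 cells with Bcl2a1a also had Bcl2a1b or Bcl2a1d, and Bcl2a1a took 2.13% to 4.56% of the counts of the 3 copies on every plate. Bcl2a1d took 0.137% and 1.33% of them on the imiquimod plates against 21.9% and 44.5% on the vehicle plates. Its summed level was 0.107 and 0.825 CPM in imiquimod against 28.4 and 31.5 CPM in vehicle (log2 fold change -6.0 ± 3.98, SE, edgeR adjusted p = 0.597). Bcl2a1d also lies within the span of Gm10634, a gene on the opposite strand whose exons it does not share in GENCODE M21, and 30 of its 31 cells had a count of Gm10634.

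Bcl2a1b itself was seen in 7 of 38 and 5 of 44 imiquimod cells (18.4% and 11.4%), against 22 of 62 and 18 of 58 vehicle cells (35.5% and 31.0%). The plates did not overlap, at a mean of 14.9% ± 4.99 in imiquimod and 33.3% ± 3.15 in vehicle (SD, n = 2 plates each, exact two-sided permutation p = 0.33). Many of these detections were faint, since 19 of the 52 cells had fewer than 10 counts. Thinned to 100000 counts, the shares were 20.0% and 9.09% in imiquimod against 24.6% and 19.0% in vehicle, and the plates overlapped. At 400000 counts they were 21.9% and 11.4% in imiquimod against 33.3% and 25.5% in vehicle, with no overlap. The summed level was 74.6 and 59.8 CPM in imiquimod, against 98 and 37.7 CPM in vehicle. These levels overlap, with a log2 fold change of -0.01 ± 2.40 (SE, edgeR adjusted p = 0.999).

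Sequence upstream of the 3 Bcl2a1 copies is alike as well. In the 250 bases before each gene start (RefSeq, GRCm38.p6), the letters TGANTCA, an AP-1-like pattern, occur once in each copy and in 6.75% of all 32851 promoters. The middle base is free in this pattern. The match in each copy is TGAATCA, and whether AP-1 binds it was not tested. Among the 15 promoters listed for the 9 genes, Bcl2a1b's was the 1 with TGANTCA. GGGNNTTCC, an NF-kB-like pattern, lay in promoters of Bbc3 and Bcl2l1 (4.98% of all promoters), and TTCNNNGAA, a STAT-like pattern, in 0 of the 15 (7.02% of all). Both strands were searched, no match overlapped another, and a match is a description of letters only. Windows of 60 bases around the match, in capitals, are given to show how far the copies agree there.
Bcl2a1b, chr9:89199089-89199148, plus strand: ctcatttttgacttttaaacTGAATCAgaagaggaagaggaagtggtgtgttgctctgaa
Bcl2a1a, chr9:88956780-88956839, plus strand: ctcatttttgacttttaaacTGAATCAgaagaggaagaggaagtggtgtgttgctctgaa
Bcl2a1d, chr9:88731925-88731984, minus strand: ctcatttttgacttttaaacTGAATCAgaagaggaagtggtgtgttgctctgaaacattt

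Bcl2, the founding restrainer of the family, was rare. It had a count in 2 of 38 and 1 of 44 imiquimod cells (5.26% and 2.27%), against 8 of 62 and 7 of 58 vehicle cells (12.9% and 12.1%). The plates did not overlap, but 10 of the 18 cells had fewer than 10 counts, and after thinning to 100000 counts the shares were 5.71% and 2.27% in imiquimod against 3.28% and 6.90% in vehicle. The summed level ran the other way, at 299.9 and 110.2 CPM in imiquimod, against 71.7 and 40.9 CPM in vehicle (log2 fold change 1.86 ± 1.87, SE, edgeR adjusted p = 0.77). It was 1.06 without imiquimod plate 1 and 2.51 without imiquimod plate 2. On imiquimod plate 2 the whole level came from 1 cell, and on the other plates 1 cell held 63.3% to 76.2%. Averaged over cells as log2(CPM + 1), the difference was -0.15 ± 0.24 (SE, limma adjusted p = 0.787), so that the sign depended on how cells were weighed.

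Mcl1, the restrainer that Treg cells are known to require, was seen at like shares among all kept cells. It had a count in 4 of 38 and 5 of 44 imiquimod cells against 7 of 62 and 7 of 58 vehicle cells, or 10.9% ± 0.592 and 11.7% ± 0.551 (SD, n = 2 plates each, exact two-sided permutation p = 0.667). In kept cells of 750 to 1500 genes the shares were 20.0% and 11.8% in imiquimod against 4.55% and 0% in vehicle, from 5 cells against 1 cell. Over every single-cell well they were 4.60% and 5.75% in imiquimod against 8.05% and 8.05% in vehicle, so that the order of the treatments turned with the cells counted. The summed level was 398.5 and 75.0 CPM in imiquimod against 88.4 and 65.3 CPM in vehicle, which overlap (log2 fold change 1.62 ± 1.73, SE, edgeR adjusted p = 0.794). Without imiquimod plate 1 the log2 fold change was 0.06. Mcl1 was the 1 gene of the 9 with a count in an empty well, 4133 counts or 2705 CPM in a well that held 1527760 counts and 885 genes. Kept cells with a count of Mcl1 had a median of 648 CPM, below the level in that empty well.

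The openers Bcl2l11 and Bbc3 were each absent from imiquimod plate 1. Bcl2l11, which encodes Bim, was seen in 0 of 38 and 3 of 44 imiquimod cells against 4 of 62 and 6 of 58 vehicle cells. Its summed level was 0 and 125.5 CPM in imiquimod against 41.9 and 59.2 CPM in vehicle (log2 fold change 0.31 ± 3.09, SE, edgeR adjusted p = 0.987), and 1 cell held 94.2% of the counts on imiquimod plate 2. Without each plate's highest cell the log2 fold change was -2.13. Bbc3, which encodes the p53-induced Puma, was seen in 0 of 38 and 3 of 44 imiquimod cells against 1 of 62 and 1 of 58 vehicle cells, at 0 and 27.1 CPM in imiquimod against 1.84 and 0.819 CPM in vehicle (log2 fold change 3.35 ± 3.90, SE, edgeR adjusted p = 0.817). With all counts the plates of both genes overlapped. Thinned to 100000 counts, Bcl2l11 was seen in 0% and 4.55% of imiquimod cells against 6.56% and 6.90% of vehicle cells, with no overlap. At 400000 counts its plates overlapped again. Without imiquimod plate 2 the remaining imiquimod plate has no count of either gene.

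The pore formers Bax and Bak1 were seen at like shares in both treatments. Bax had a count in 3 of 38 and 5 of 44 imiquimod cells against 6 of 62 and 5 of 58 vehicle cells, or 9.63% ± 2.45 and 9.15% ± 0.747 (SD, n = 2 plates each, exact two-sided permutation p = 1.0). Its summed level was 257.6 and 190.1 CPM in imiquimod, against 82.5 and 56.9 CPM in vehicle. These did not overlap, with a log2 fold change of 1.68 ± 1.72 (SE, edgeR adjusted p = 0.777). In cells with a count the median was 957 and 1198 CPM in imiquimod against 460.3 and 132.7 CPM in vehicle, and 1 cell held 90.6% of the counts on imiquimod plate 1. Bak1 had a count in 2 of 38 and 1 of 44 imiquimod cells against 2 of 62 and 3 of 58 vehicle cells, at 18.9 and 0.943 CPM in imiquimod against 0.253 and 10.7 CPM in vehicle, which overlap (log2 fold change 0.86 ± 3.39, SE, edgeR adjusted p = 0.963). Exons of Bak1 share bases with Ggnbp1 on the opposite strand in GENCODE M21, all 8 cells with Bak1 also had a count of Ggnbp1, and without a stated strand setting the reads of the pair cannot be told apart.

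Pim1, the cytokine-induced survival kinase, was the gene of the 9 seen in the most cells, and its median level in cells with a count was higher on both imiquimod plates. It had a count in 24 of 38 and 28 of 44 imiquimod cells (63.2% and 63.6%), against 41 of 62 and 30 of 58 vehicle cells (66.1% and 51.7%), which overlap. In cells with a count the median was 269.6 and 374.99 CPM in imiquimod, against 69.9 and 57.0 CPM in vehicle. The lowest imiquimod cells with a count stood at 21.4 and 9.84 CPM, against 1.26 and 0.364 CPM in vehicle. Thinned to 100000 counts the shares did not overlap, at 62.9% and 63.6% in imiquimod against 57.4% and 41.4% in vehicle (63.2% ± 0.551 and 49.4% ± 11.3, SD, n = 2 plates each, exact two-sided permutation p = 0.33). Thinned to 400000 counts they overlapped, at 65.6% and 63.6% in imiquimod against 70.6% and 45.5% in vehicle. A share counted at 10 CPM or more was 62.3% ± 1.27 in imiquimod and 45.6% ± 10.8 in vehicle (SD, n = 2 plates each).

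The summed level of Pim1 was 421 and 594 CPM in imiquimod, against 205.3 and 191.96 CPM in vehicle. Both imiquimod plates lay above both vehicle plates, and the log2 fold change was 1.35 ± 1.11 (SE, edgeR adjusted p = 0.698). It lay between 1.19 and 1.68 when each plate was left out in turn. The difference of mean log2(CPM + 1) per cell was 1.66 ± 0.83 (SE, limma adjusted p = 0.33). No cell held more than 36.9% of the Pim1 counts of its plate. Gm26885 lies on the opposite strand and shares exon bases with Pim1 in GENCODE M21. It had a count in 65 cells, 49 of which also had Pim1, so that part of the Pim1 reads may be assigned to either gene.

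Among the kept cells, 36 had no count of any of the 9 genes, 72 had a count of 1 and 48 of 2. A restrainer gene (Bcl2, Bcl2l1, Mcl1 or Bcl2a1b) was seen in 41.5% of imiquimod cells against 65.8% of vehicle cells. By plate the shares were 50.0% and 34.1% in imiquimod against 66.1% and 65.5% in vehicle, and after thinning 45.7% and 29.5% against 57.4% and 56.9%. Bcl2l1 was in 20 of these 34 imiquimod cells and 54 of these 79 vehicle cells. Of single genes detected in at least 20% of kept cells, 59.3% were lower on both imiquimod plates. No such background was taken for groups of genes. A gene of the opposing side (Bcl2l11, Bbc3, Bax or Bak1) was seen in 17.1% of imiquimod cells against 20.8% of vehicle cells. Both kinds were seen in 25 cells, and 14 cells had an opposing gene without a restrainer. Pim1 without any restrainer was seen in 30 of 82 imiquimod and 21 of 120 vehicle cells. The number of these genes per cell moved with gene number, from a median of 733 genes in cells with none to 2474.5 in cells with 4 or more.

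Of the 36 pairs of the 9 genes, 27 met in more kept cells than the product of their shares within a plate would give and 9 in fewer. Each plate's cells were also split at their median gene number, with the product taken within each part. The parts are wide and do not match gene number from cell to cell. Within parts 22 pairs met in more cells and 14 in fewer. After thinning to 100000 counts, with the parts set by gene number before thinning, 18 met in more and 18 in fewer. Bcl2l1 and Bcl2a1b met in 32 cells, against 21.1 from the product of their shares, or 24.9 within parts. After thinning they met in 14 cells against 12.3, or 14.4 within parts. Bcl2l1 and Pim1 met in 51 cells against 44.8, or 48.6 within parts. Bcl2a1b and Pim1 met in 42 against 31.5, or 35.2 within parts. Bcl2 and Bcl2l1 met less often than the product, in 6 cells against 7.54. Il2ra, the high-affinity chain of the interleukin-2 receptor, met Bcl2l1 in 52 cells against 37.9. After thinning they met in 44 against 28.4, or 31.9 within parts. These numbers describe sparse counts that share cells and depth and were not tested.

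The genes most like each of the 3 commonest members were sought among 987 genes detected in at least 25% of cells, by Pearson correlation of log2(CPM + 1) over the 82 imiquimod and 120 vehicle cells after removal of plate means. All correlations were weak, share the depth and gene number of the cells, and are given as a description. For Bcl2l1 they were Tnfrsf1b, the tumour necrosis factor receptor TNFR2 (0.33), Fosl2, a subunit of AP-1 (0.32), and Grb2, an adaptor of growth factor receptors (0.31). For Bcl2a1b they were Gm10634 (0.52), Gm52552 (0.32) and Snd1 (0.31). For Pim1 they were Ahnak (0.37), the mitochondrial COX1 (0.34) and the histone gene H3f3b (0.34). Gm10634 spans Bcl2a1d, a near-identical copy of Bcl2a1b. Whether reads shared among these genes enter its correlation with Bcl2a1b was not tested.

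Other genes of the route gave no call either. No member of 9 further lists passed edgeR's test in either direction, where 0.0% of all tested genes passed. Of the other restrainers 2 of 4 were tested (Bcl2a1a and Bcl2a1d, above), and Bcl2a1a stood at 3.57 and 1.32 CPM in imiquimod against 2.82 and 1.62 CPM in vehicle. Of the other effectors 3 of 4 were tested, with 2 of them above 0 and a median log2 fold change of 5.26, which rests on Bcl2l15 at 654.6 and 0 CPM in imiquimod against 0.506 and 0.157 CPM in vehicle and on Bcl2l14 at 31.8 and 0 CPM against 0 and 0.827 CPM. Of 6 other BH3-only genes 5 were above 0, with a median of 2.24. Bnip3l, whose protein marks mitochondria for removal, stood at 65.6 and 316.1 CPM in imiquimod against 7.26 and 91.1 CPM in vehicle, and Bmf at 389 and 0 CPM against 0 and 0.134 CPM. Of 8 apoptosome and caspase genes 6 were above 0, with a median of 1.3. Casp8, the initiator caspase of death receptors, stood at 161.2 and 197.3 CPM in imiquimod against 43.5 and 99.6 CPM in vehicle (log2 fold change 1.33 ± 1.86, SE, edgeR adjusted p = 0.857). Pim2 stood at 0 and 246.5 CPM in imiquimod against 16.0 and 15.2 CPM in vehicle, and Pim3 at 0.128 and 220.3 CPM against 76.2 and 2.04 CPM.

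Genes that feed the survival genes were split in direction when counts were summed over cells. Of 12 genes of the interleukin-2 and common gamma chain input, 6 were above 0, with a median log2 fold change of 0.06. Il2ra stood at 657 and 978 CPM in imiquimod, against 2621 and 1887 CPM in vehicle (log2 fold change -1.46 ± 0.58, SE, edgeR adjusted p = 0.42). Il2rg, the common chain, stood at 1860.3 and 1037.5 CPM in imiquimod against 1219 and 855 CPM in vehicle, and the kinase gene Jak1 at 57.5 and 630.9 CPM against 681 and 265.9 CPM. Cish, a target of STAT5, stood at 791 and 305.1 CPM in imiquimod against 485 and 376.7 CPM in vehicle. Of 11 NF-kB inputs and other survival factors 5 were above 0, with a median of -0.23. Traf1, whose protein signals below tumour necrosis factor receptors, had 701 and 484 CPM in imiquimod against 1865 and 1479 CPM in vehicle (log2 fold change -1.5 ± 0.66, SE, edgeR adjusted p = 0.422), and Nfkb1 at 2533 and 634 CPM against 1194 and 1427 CPM. Of 6 p53 and FOXO genes 2 were above 0 (median -0.38), with Cdkn1a, a cell cycle inhibitor under p53, at 457 and 714 CPM in imiquimod against 599 and 333.2 CPM in vehicle. Of 3 genes of Mcl1 turnover 1 was above 0 (median -0.88), the ubiquitin ligase gene Huwe1 at 208.04 and 580.5 CPM in imiquimod against 72.7 and 192.6 CPM in vehicle. Averaged over cells as log2(CPM + 1), most of these inputs were lower in imiquimod. Above 0 were only Socs1 (0.45), Socs2 (0.41), Rela (0.18) and Trp53 (0.19). Il2ra differed by -2.97 and Traf1 by -4.0 (limma adjusted p = 0.274 each). Lower detection on both imiquimod plates was seen for 59.3% of the 1559 commoner genes.

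In ten-cell wells the commonest genes were seen throughout. Bcl2l1, Bcl2a1b and Pim1 each had a count in all 16 wells, Mcl1 in 13, Bax in 11, Bcl2l11 in 8, Bbc3 in 6, Bak1 in 3 and Bcl2 in 2. If each well held 10 cells drawn at the share of kept single cells, 15.8 wells would hold Bcl2l1, 15.2 Bcl2a1b and 16.0 Pim1. The same reckoning gives 11.2 wells for Mcl1, 10.0 for Bax, 7.77 for Bcl2l11, 3.55 for Bbc3 and 5.32 for Bak1. For Bcl2 it gives 9.71 wells, with 6.78 to 12.3 from the counting interval of the single-cell share, against the 2 observed. That share pools the treatments, with Bcl2 in 3.66% of imiquimod and 12.5% of vehicle cells, and the ten-cell wells have no treatment label. The number of wells would move with their mix of treatments, and no reckoning was made for each treatment. The share also counts any read, and 10 of the 18 single cells with Bcl2 had fewer than 10 counts. Ten-cell wells held a median of 3934432.5 counts for 10 cells, against plate medians of 812852.5 to 2223276 counts per kept single cell. A share of cells with at least 10 counts would give fewer wells, and the reckoning was not repeated with it. Both wells with Bcl2 belong to the first of the 4 ten-cell sets. In pooled wells, fewer cells with a transcript and less of it per cell cannot be told apart.

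**Figure D5:**
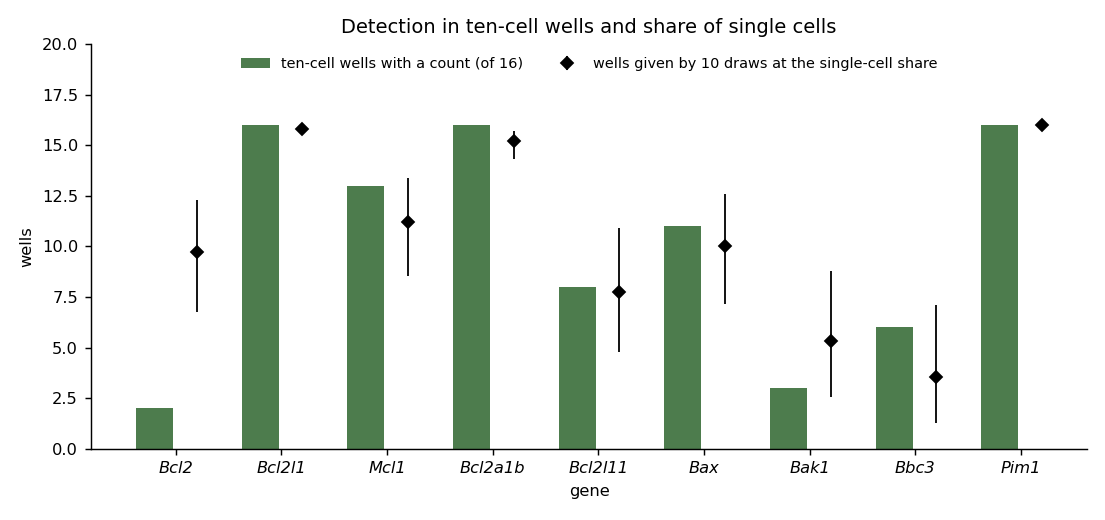
Number of the 16 ten-cell wells with a count of each gene (bars) beside the number that 10 cells drawn at the single-cell share would give (diamonds, with lines for the exact 95% interval of that share). Bcl2 stands at 2 wells against 9.71, below its line, and the other bars lie nearer to their diamonds. The lines cover counting error only, and faint single-cell detections enter the share. That share pools both treatments, while the ten-cell wells have no treatment label.

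Levels in ten-cell wells were set against those of kept single cells, with each of 4 ten-cell sets and 4 plates as a sample. EdgeR called 0 of 11452 genes (0.0%), with 2.11% at an unadjusted p under 0.05, and DESeq2 called 68 (0.594%). None of the 9 genes passed in either, where DESeq2 gave no p for Mcl1 and Bcl2a1b. Bcl2 came nearest, at 18.3, 0, 0 and 0 CPM in the ten-cell sets against 311.9, 116.3, 80.5 and 48.6 CPM on the plates (log2 fold change -4.92 ± 2.38, SE, edgeR p = 0.0521, adjusted p = 1.0). Without the first set, the remaining sets hold no count of Bcl2 and the fitted value of -15.90 gives no size. Bcl2l1 stood at 751, 704, 179.2 and 323.9 CPM in the ten-cell sets against 826, 311.7, 1475 and 1029.8 CPM on the plates (-0.90 ± 0.67), and Pim1 at 103.9, 156.6, 227.6 and 210 CPM against 438, 628, 230.5 and 227.7 CPM (-1.13 ± 0.85). Bcl2a1b stood at 29.3, 41.5, 555 and 51.2 CPM in the sets against 77.6, 63.1, 110.1 and 44.7 CPM on the plates (1.20 ± 1.33), and without its highest set the log2 fold change was -0.99. The other 5 genes had log2 fold changes of -3.76 (Bak1) to 1.81 (Bbc3), each with an edgeR adjusted p of 1.0.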

How the data were processed

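The deposited matrix held whole-number counts of reads per gene symbol for 384 wells, without normalization by the authors. Per the labels' protocols, RNA was primed with oligo dT, amplified for 24 cycles and given another 12 cycles in a tagmented library. Per the submitters' processing notes, Trimmomatic 0.39, STAR 2.7.3a and SAMtools 1.12 were used with mm39. The counting tool, its treatment of shared reads and its strand setting are not given in the sources used here. Intervals and limits cover counting error only.

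The 9 genes, the further lists and the tests were chosen with earlier results of these data known. Counts of kept cells were summed by plate and tested with edgeR 4.0.16 (default expression filter, TMM scaling, quasi-likelihood test, Benjamini-Hochberg adjustment over all genes tested). DESeq2 1.42.0 and limma 3.58.1 (pseudocount 1 CPM) were alternatives, run in R 4.3.3. Shares of cells were compared by exact permutation over plates (scipy 1.17.1). Thinning drew each cell's counts without replacement to 100000 or 400000 and left out 4 and 20 shallower cells. Plates are nested in treatments, so a plate and its treatment differ in ways that only the spread of 2 plates shows. No doublet caller was run on sorted wells. Of each further list, up to 4 genes were to be named, those of highest mean level where none passed. Exon lengths, overlaps and coding sequences come from GENCODE M21 (GRCm38), and no mm39 coordinates were used. The statistical scripts were tested on simulated counts.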

Additional observations from a re-analysis of the deposited data

Results flagged for a closer look

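With 4 ten-cell sets, 4 of the 9 genes had 1 set far from the other 3. In groups of normally distributed values chance alone gives such a gap in about 1 of 20. That rate does not hold for Bcl2 and Bak1, whose gaps come from sets at 0. Whether it holds for the uneven levels of Bcl2a1b and Mcl1 was not tested. Bcl2a1b stood at 432.4 CPM (unscaled) in set 3 against 30.7, 46.1 and 63.8 CPM in the other sets. Mcl1 stood at 170.3 CPM in set 4 against 36.0, 56.3 and 36.0 CPM. Bcl2 stood at 19.2 CPM in set 1 and at 0 in the other 3, and Bak1 at 2.47 CPM in set 1 against 0.106, 0 and 0 CPM. The single wells behind these sets differ, since the 4 wells of set 3 had 259.2, 60.4, 524.5 and 688.7 CPM of Bcl2a1b, while 1 well of set 4 had 436.9 CPM of Mcl1 and the others 9.63, 110.8 and 0 CPM.

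Mcl1 had 4133 counts in 1 of the 20 empty wells, which enter no comparison.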

How the results depend on the processing

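No treatment alternative called any of the 9 genes. The count of all genes called for treatment was 0 in the edgeR fit of all kept cells, 3740 with DESeq2, 9 without the filter on low counts, and 0 to 794 when each plate was left out. Fits without an imiquimod plate leave 1 plate in that arm, assumed to vary like the vehicle plates. For ten-cell wells against single cells the count was 0, against 68 with DESeq2, 22 without the filter and 0 to 0 when each set or plate was left out. With the index range as a replicate block the count was 0 as well (1.98% of genes at an unadjusted p under 0.05, against 2.11% without it). The labels number each ten-cell set within the index range of 1 plate and do not say what a range shares. Deviations of sets and plates of 1 range correlated at 0.0326 to 0.172, 2 of 4 above 0.1. Under the block the fitted ten-cell value of Bcl2 was -12.17, against -4.92. No paired analysis was possible for treatment because the plates are nested in treatments.

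Log2 fold changes for treatment changed sign in 9 of 79 alternatives and in 6 of 36 fits with a plate left out, and the cause was not tested. Bcl2 was -0.15 with cells weighed equally. Bcl2a1b was 0.46 with DESeq2 and 0.46 with its size factors, 1.48 in every single-cell well, and -0.54 to 0.77 with a plate left out (above 0 without imiquimod plate 2 or vehicle plate 1). Bcl2l11 was -3.53 in cells of at least 1000 genes, -0.31 with cells weighed equally, -2.13 without the highest cell per plate, and -15.15 to 1.42 with a plate left out. Bak1 was -0.17 and -0.07 in cells thinned to 100000 and 400000 counts and -2.41 to 5.27 with a plate left out (below 0 without imiquimod plate 1 or vehicle plate 1). Bbc3 was -9.92 to 4.44. The lowest values of Bcl2l11 and Bbc3 are fitted without imiquimod plate 2 against a plate with no count and give no size. Bak1 and Bbc3 gave no value without the highest cells, nor Bbc3 at 100000 counts. For ten-cell wells over single cells, Bax was -0.10 without the filter, -0.31 with the replicate block and -1.08 to 0.53 with a sample left out (below 0 without set 3, vehicle plate 1 or vehicle plate 2), and Bcl2a1b was -0.99 to 1.48 (below 0 without set 3).

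Shares, as imiquimod minus vehicle in percentage points, moved by more than the spread between plates in these cases. Bcl2l1 was -34.8 in cells of at least 1000 genes (-24.5 to -16 with a plate left out). Bcl2a1b was -7.23 and -12.8 at 100000 and 400000 counts, -4.49 at 10 counts and -5 at 10 CPM (-21.9 to -14.8 with a plate left out). Pim1 was 4.47 with all counts, 16.5 at 10 counts, 16.7 at 10 CPM, 18.6 in cells of at least 1000 genes and 29.0 in cells of 750 to 1500 genes (-2.73 to 11.7 with a plate left out). Among the rarer genes, Bcl2 was -8.72 with all counts and -11.1 to -0.431 under 5 settings, Mcl1 was -0.735 with all counts and -2.87 to 13.6 under 5, Bax was 3 in cells of at least 1000 genes, and Bak1 was 2.1 at 10 counts and -2.78 in cells of 750 to 1500 genes. Within the spread, Bcl2a1b was -23 when any of the 3 copies counted and Pim1 -4.60 in every single-cell well. Leaving out the highest cells, summing the copies, thinning to 400000 counts before summing and the range of 750 to 1500 genes were chosen after seeing the data. Few cells carry the rarer genes, and depth limits what their shares can show.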
